A study of Mus musculus with 9 samples.

Results

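The mRNAs of cytosolic ribosomal proteins were followed in RNA bound to tagged ribosomes of mouse astrocytes. They were taken as the protein-coding genes whose symbol starts with Rpl or Rps and a number, together with Rplp0, Rplp1, Rplp2 and Rpsa and without the Rps6k kinases, and the 22092 genes of the count tables held 91 of them. Of these, 46 encode core proteins of the large 60S subunit, 31 core proteins of the small 40S subunit and 14 are paralogues or genes that only share the name. The 14 include Rps19bp1, which encodes a nucleolar partner of Rps19 and of the deacetylase Sirt1 and is no ribosomal protein. Another 23 genes with a matching symbol are not protein-coding, mostly processed pseudogenes, and were left out.

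All mice were 2 months old, of the strain labelled Aldh1L1 JD130 with the genotype tg:Aldh1L1-L10aGFP, a bacterial artificial chromosome in which the astrocyte promoter of Aldh1l1 drives ribosomal protein L10a fused to GFP. In translating ribosome affinity purification (TRAP), GFP antibodies pull down the tagged ribosomes with the mRNAs they carry. Whole astrocyte TRAP (3 libraries) started from 1 brain each, without choroid plexus, and endfeet TRAP (6 libraries) from purified brain vessels of 8 mice pooled for each library, to which the perivascular ends of astrocyte processes stay attached. Both groups carry the transgene, there was no library without it and no RNA from before the pull-down, so a level here is an amount of RNA recovered with the beads. In such bulk samples, fewer cells of a type and less RNA per cell cannot be told apart.

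Each ribosome holds 1 copy of nearly every ribosomal protein, and the mRNAs for these proteins belong to the most translated messages of growing cells. They start with a tract of pyrimidines, the 5 prime TOP motif, through which the kinase mTOR and the RNA-binding protein Larp1 switch their translation on and off together. Ribosomal protein genes have also left many processed pseudogenes in mammalian genomes, intronless copies of the mRNA that often keep nearly the whole sequence. In neurons and astrocytes, mRNAs of ribosomal proteins have been found in distal processes as well as in the cell body.

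The copies bear on which reads were counted, because the authors discarded every read of 50 bases that matched the genome more than once. Each window of a read's length within an exon of a member's transcript was compared with all annotated transcripts of other genes (GENCODE M21), allowing 2 mismatches. Windows of 4 members, shown because they run from an exact copy elsewhere to no match, are printed 5 prime to 3 prime with the copy for Rps27 and Rpl4, and a capital marks a difference from the member.
Rps27, chr3:90212995-90213044, minus strand, window matched in 4 other genes: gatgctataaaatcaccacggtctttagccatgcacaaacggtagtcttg
Gm17241, a copy of Rps27 at chr15:99706649-99706698, minus strand: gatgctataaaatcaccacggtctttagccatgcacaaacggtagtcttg
Rpl4, chr9:64177332-64177381, plus strand, window matched in 1 other gene: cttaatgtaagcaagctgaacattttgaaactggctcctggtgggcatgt
Gm5835, a copy of Rpl4 at chr1:143093870-143093919, minus strand: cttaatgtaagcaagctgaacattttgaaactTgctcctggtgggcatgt
Rps24, chr14:24492033-24492082, plus strand, window matched in 10 other genes: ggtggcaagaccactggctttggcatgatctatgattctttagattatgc
Rpl8, chr15:76904895-76904944, plus strand, window matched in 0 other genes: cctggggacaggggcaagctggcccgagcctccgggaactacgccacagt
Coordinates are those of mm10. A read from the Rps27 or Rps24 window could not be placed, and that of Rpl8 matched nowhere else among annotated transcripts. That of Rpl4 differed from its copy at 1 base, within the 2 mismatches allowed here, and whether such a read was kept was not tested.

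Over the 91 members, the median share of these windows without a match in another gene was 58.0% for the transcript that stood for the gene. With coding transcripts the median was 45.2%, and 17 members were represented by a transcript that is not of coding type. It was 0% for 5 members (Rps12, Rps24, Rps27, Rpl36 and Rps12-ps3) and 100% for 3, among them Rpl3l and Rps19bp1. With exact matches only, 25 of the 91 members (27.5%) had under 50% of their windows to themselves, as did 5.96% of 21207 other protein-coding genes, and the medians were 65.9% and 100%. Unannotated copies were not searched, so these shares are upper limits for windows within exons. They do not bound the counted reads: Rps24, at 0%, had 54, 69 and 62 counts in whole astrocyte libraries. Where such reads lie was not tested. A match in 1 or more pseudogenes was found for 87 members, with a median of 14 pseudogenes.

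Levels of the members differed by orders of magnitude. Counts were scaled to a common library total with TMM factors (CPM), and levels of different genes are compared as CPM per kb of transcript. Among the highest, Rpl8, next to the peptidyl transferase centre, had 239 CPM per kb in whole astrocyte libraries and 437 in endfeet libraries on average, which put it at rank 179 and rank 44 of the 22092 genes, and Rpl4, whose long loop lines the exit tunnel, 96.0 and 394. At the other end, among the 30 members with at least 10 counts in every library, stood Rplp0 with 1.24 and 3.93 CPM per kb, Rpl36al with 1.91 and 3.26, and Rpl9 with 0.395 and 4.01. The value of Rpl9 is that of a transcript with a retained intron, of 2651 bases against a median of 833 over the members, and holds for that transcript only.

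Although these proteins are needed in nearly equal amounts, the SD of log2 CPM per kb over 55 members detected in every library and having at least 1 unmatched window was 2.71 to 2.72 in whole astrocyte libraries and 2.68 to 3.13 in endfeet libraries. Counting only the windows without a match as length gave 2.80 to 2.81 and 2.92 to 3.28. Members with under 25% of such windows had a median of 1.41 CPM per kb in whole astrocyte TRAP (20 members), those with 25 to 75% had 1.67 (48 members) and those with 75% or more had 2.73 (22 members). Across the 90 members with a count, share of windows and level per kb had a Spearman correlation of 0.19, given as a description, since all points share the same libraries. These shares are those of the transcript that stood for the gene, which for 17 members is not of coding type. The levels are those of uniquely placed reads, and the levels of the mRNAs themselves were not measured apart from this. Windows across exon junctions were not examined, and whether reads from them were aligned was not tested. For Rps27, with a transcript of 345 bases, 156 windows lie within exons.

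**Figure D1:**
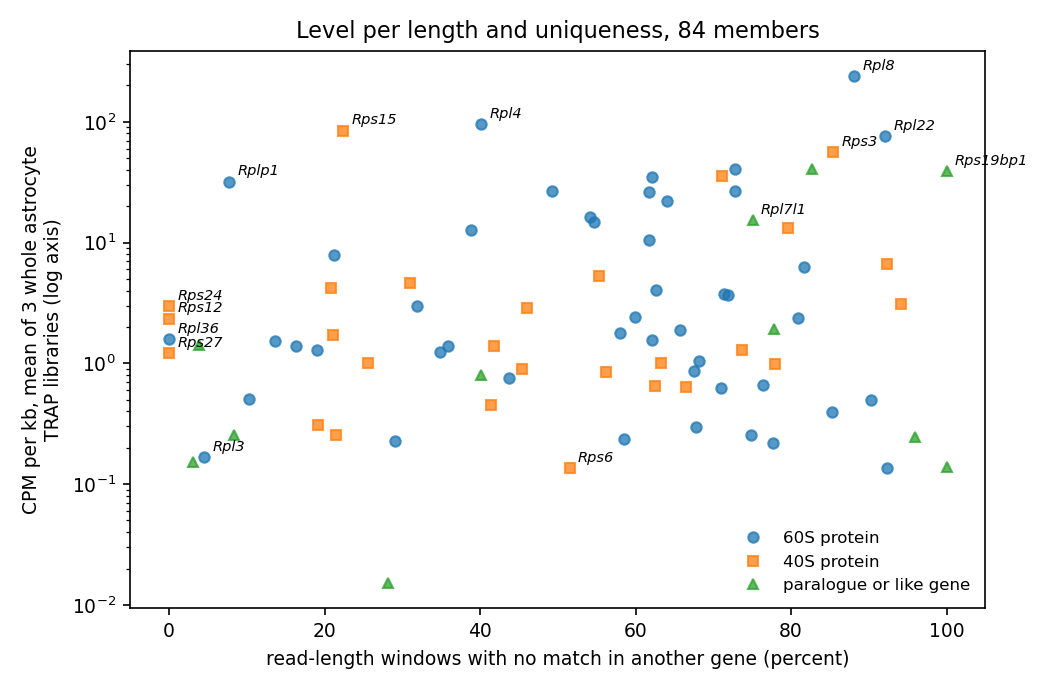
Level of 84 of the 88 members with a count in whole astrocyte TRAP (CPM per kb of transcript, mean of 3 libraries, log axis) against the percent of read-length windows that match no annotated transcript of another gene. Rpl8 sits at 88.2% and 239 CPM per kb and Rps6 at 51.5% and 0.136, while Rps24, Rps12, Rpl36 and Rps27 at 0% lie between 1.21 and 2.98. Shares are those of the transcript that stood for the gene. That of Rps6 is not of coding type, and its coding transcript has 12.2%.

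Only 5 members, among them Rpl4, Rpl8 and Rpl22, took most of the reads. The 5 together held 59.0 to 61.1% of the members' counts in whole astrocyte libraries and 60.01 to 70.7% in endfeet libraries. Rpl4 led in endfeet libraries 1, 4, 5 and 6. By contrast, 55 members had under 100 counts in each whole astrocyte library, 34 had no count in at least 1 endfeet library, and Rpl10l had none anywhere. Rps6, the substrate of S6 kinase, was counted 3, 6 and 10 times in whole astrocyte libraries of 35984144 to 43521208 gene counts. For a count of 0, 3 counts allow a level of up to 0.0689 to 0.0834 CPM in whole astrocyte libraries and 0.223 to 1.29 CPM in endfeet libraries, where gene counts ranged from 2319495 to 13450588. Such limits cover counting error only.

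All members together made up a small part of the counts, and a larger one in endfeet TRAP. They held 0.144, 0.161 and 0.166% of gene counts in whole astrocyte libraries 1 to 3, and 0.228, 0.206, 0.301, 0.237, 0.189 and 0.4997% in endfeet libraries 1 to 6. The groups did not overlap, and endfeet library 6, which has the fewest counts, stood apart at the top. The mean was 0.157% ± 0.0115 (SD, n = 3) in the former and 0.277% ± 0.116 (SD, n = 6) in the latter, or 0.232% without endfeet library 6. Paralogues and like genes together held 0.00957 to 0.0113% in whole astrocyte libraries and 0.00301 to 0.00599% in endfeet libraries, and 3 of the 14, Rpl7l1, Rps27l and Rps19bp1, took 95.3 to 95.5% and 64.1 to 88.3% of these counts.

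**Figure D2:**
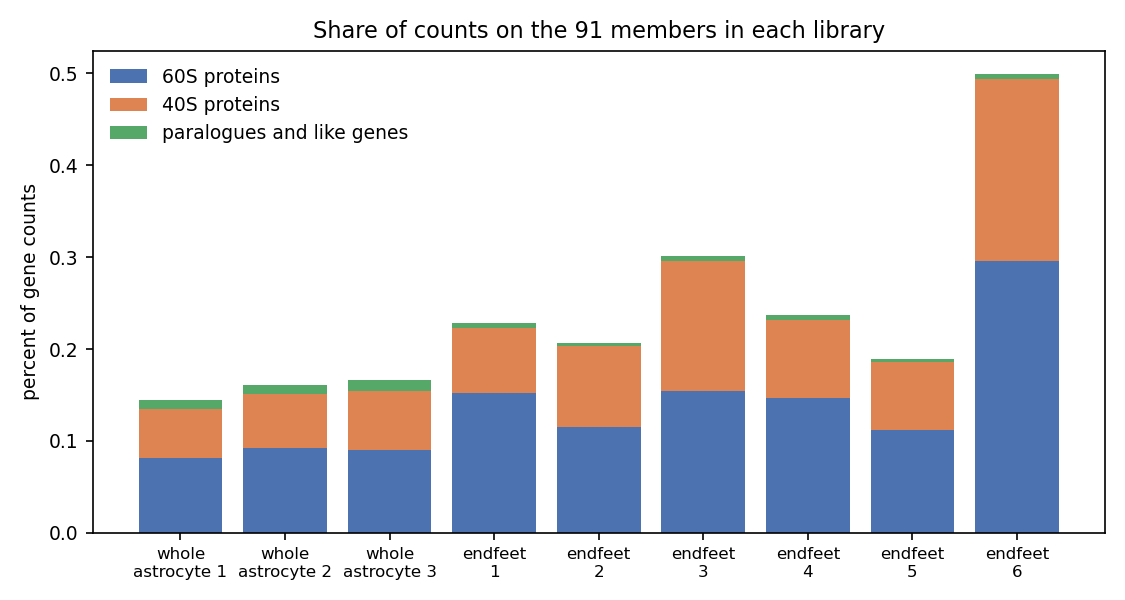
Percent of all gene counts on the 91 members in each of the 9 libraries, stacked by 60S proteins, 40S proteins and paralogues or like genes. The 3 whole astrocyte libraries lie between 0.144 and 0.166% and the 6 endfeet libraries between 0.189 and 0.4997%.

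Endfeet TRAP was compared with whole astrocyte TRAP gene by gene with edgeR's quasi-likelihood test over all 9 libraries, and p-values were adjusted over all 14427 genes tested. Of the 91 members, 68 had enough counts to be tested. A member that passed this filter only through the group where it is high had to differ, so the counts that follow describe the tested members and not all 91. Rpl10, Rpl13, Rpl22l1, Rpl35a, Rpl37 and Rpl38 were under the cutoff of 0.752 CPM in each whole astrocyte library and entered the test through endfeet libraries alone. Rpl28, Rpl7a and Rps7, whose endfeet libraries all lay below, passed the filter only through whole astrocyte libraries, where they are high. Of the 68, 11 (16.2%) were higher in endfeet TRAP at an adjusted p of at most 0.05, against 20.7% of all tested genes, and 3 (4.41%) were lower, against 13.9% of all tested genes. All endfeet libraries were above all whole astrocyte libraries for 12 tested members (17.6%, against 18.9% of all tested genes) and below them for 8 (11.8%, against 23.8%). The share called higher was thus near the background and is no result about the members, and among those with at least 10 counts in every library it was above the background, at 11 of 30 (36.7%, against 27.7% of all genes so tested). The share called lower was below the background with this filter too (6.67%, against 23.3%). The median log2 fold change of the tested members was 0.65, against 0.10 for all tested genes, and 49 of the 68 had a positive value. The 40 tested 60S proteins had 5 called higher and 1 lower with a median of 0.65, and the 22 tested 40S proteins had 6 higher and 0 lower with a median of 0.59 (0 lower also at an unadjusted p under 0.05 and by DESeq2, 1 by limma voom). At an unadjusted p under 0.05, 12 members were higher and 4 lower by edgeR, and DESeq2's Wald test gave 13 and 4 at an adjusted p of at most 0.05. Leaving out whole astrocyte library 1, 2 or 3 left 3, 4 and 3 members higher and 1, 0 and 0 lower, while without endfeet library 6 there were 10 and 3, with a median log2 fold change of 0.45. Of the members described below, Rpl4 and Rps20 kept their call with each library left out, Rpl9 and Rpl7l1 kept it without 1 of the 3 whole astrocyte libraries, and Rpl10, Rpl13a, Rpl23a, Rplp1, Rps3, Rps9, Rps19, Rps19bp1 and Rpsa lost it without any 1 of these 3.

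**Figure D3:**
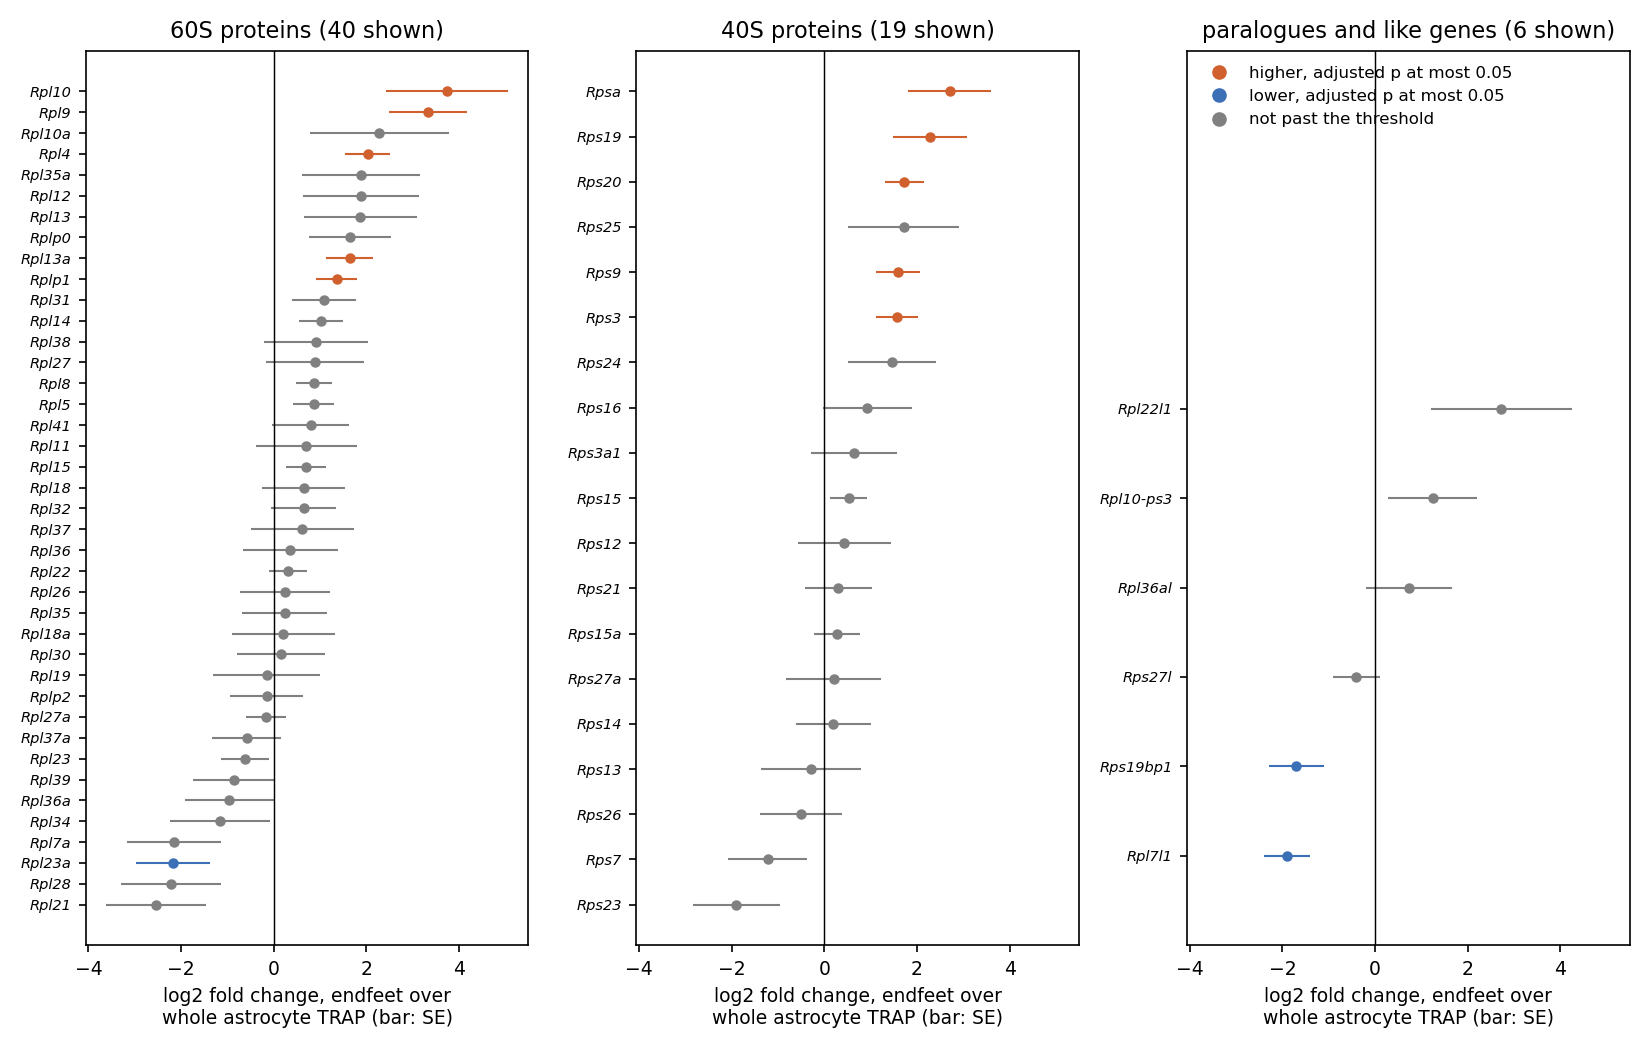
Log2 fold change of endfeet over whole astrocyte TRAP with its SE for 65 of the 68 tested members, in 3 panels by class, each sorted by value. Orange points are 10 members past the threshold as higher, blue points the 3 as lower, and most grey points of the 60S and 40S panels lie to the right of 0.

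Of the 11 members called higher, 6 build the 40S subunit. Rpsa (chromosome 9, 120127689 to 120132369 in mm10), near the mRNA exit and also known as the laminin receptor, had 1.51, 1.09 and 1.21 normalized CPM in whole astrocyte libraries and 2.25, 4.48, 7.88, 16.5, 9.95 and 8.68 in endfeet libraries. The groups did not overlap, but endfeet library 1 was close to the whole astrocyte level and rests on 12 counts. The log2 fold change was 2.70 (SE 0.90, adjusted p = 0.033 by edgeR). Rps19 (chromosome 7, 24884371 to 24889806), mutated in Diamond-Blackfan anaemia, had 1.89, 3.02 and 2.50 CPM against 8.82, 8.04, 11.5, 8.53, 6.63 and 29.2, with library 6 on top and no overlap (log2 fold change 2.28, SE 0.79, adjusted p = 0.040 by edgeR). Its counts belong to a transcript annotated for nonsense-mediated decay, and the coding transcript gave 2.45 (adjusted p = 0.033).

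Rps20 (chromosome 4, 3831334 to 3835665), a protein of the subunit's head, had 23.1, 22.5 and 27.6 CPM in whole astrocyte libraries and 66.4, 59.1, 76.6, 59.5, 69.5 and 156 in endfeet libraries. Apart from library 6 the endfeet libraries lay close together, all of them above whole astrocyte TRAP, and the difference of 1.73 on the log2 scale (edgeR, adjusted p = 0.0057, SE 0.41) kept its call in each alternative fit and with each library left out. Rps9 (chromosome 7, 3703993 to 3706897), which helps to form the mRNA entry channel, had 42.2, 45.2 and 56.6 CPM against 131, 81.5, 114, 124, 79.2 and 345. Rps3 (chromosome 7, 99477896 to 99483738), at the same channel and also a DNA repair enzyme, had 112, 102 and 107 CPM against 291, 163, 226, 303, 193 and 744. For both the groups were separate and endfeet library 6 was well above any other, with log2 fold changes of 1.60 (SE 0.48, adjusted p = 0.019 by edgeR) and 1.58 (SE 0.45, adjusted p = 0.016 by edgeR).

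**Figure D4:**
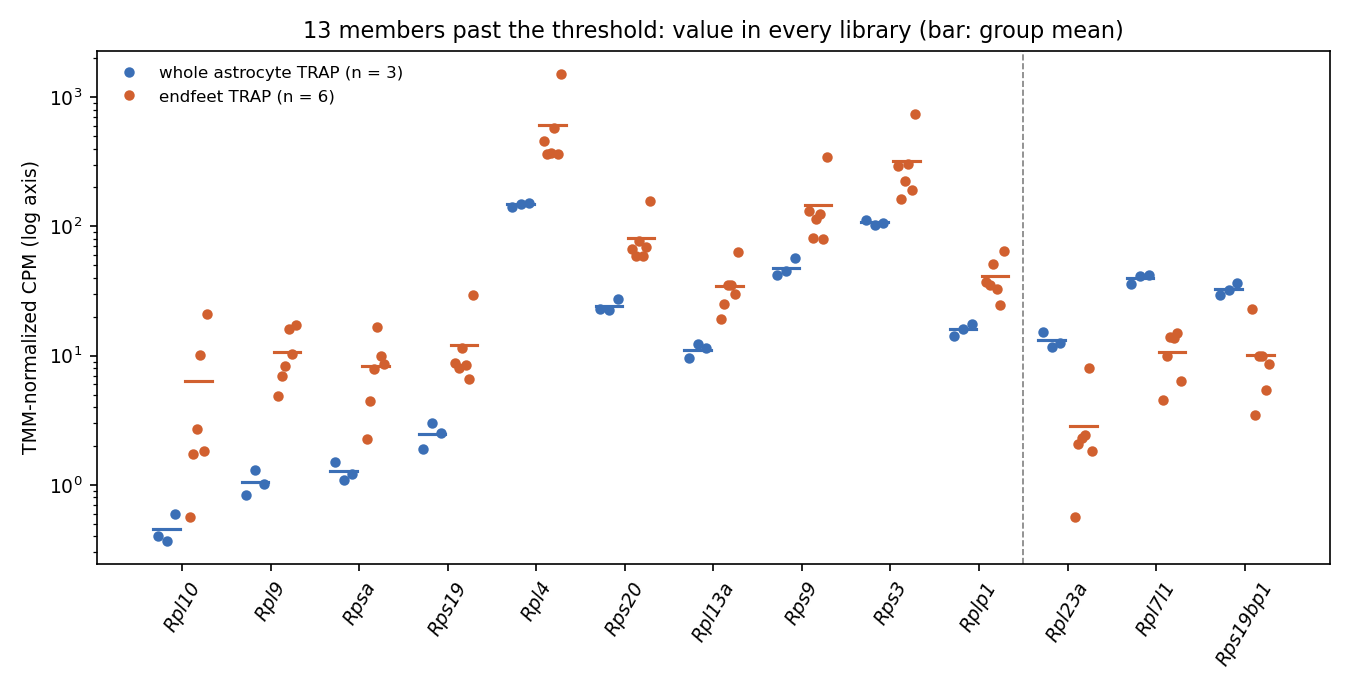
TMM-normalized CPM (log axis) of 13 of the 14 members past the threshold in every library, with 3 whole astrocyte points in blue and 6 endfeet points in orange for each gene and a bar at the group mean. Members right of the dashed line were lower in endfeet TRAP, and Rpl10 has an endfeet library at 0.563 below the highest whole astrocyte library at 0.593.

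Among 60S proteins, Rpl4 (chromosome 9, 64173375 to 64178666) had by far the most counts of those that rose. It had 142, 149 and 151 CPM in whole astrocyte libraries and 455, 363, 367, 579.6, 360.2 and 1507 in endfeet TRAP, with no overlap. The log2 fold change was 2.03 (edgeR, adjusted p = 0.0056, SE 0.48), and it kept its call in each alternative fit and with each library left out. Rpl13a (chromosome 7, 45125558 to 45128761), also part of a complex that silences inflammatory mRNAs, had 9.57, 12.3 and 11.4 CPM against 19.1, 24.9, 35.4, 35.01, 29.8 and 63.5 (log2 fold change 1.64, SE 0.51, adjusted p = 0.024 by edgeR). Its groups were separate too.

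Rpl9 (chromosome 5, 65388364 to 65391444), which sits at the base of the P stalk, had 0.838, 1.30 and 1.01 CPM in whole astrocyte libraries and 4.88, 6.89, 8.34, 16.02, 10.3 and 17.4 in endfeet libraries. Each endfeet library was several times above each whole astrocyte library (log2 fold change 3.33, SE 0.84, adjusted p = 0.0080 by edgeR). Rpl10 (chromosome X, 74270812 to 74273135), the last protein to join the 60S subunit before it can meet the 40S subunit, had 0.405, 0.371 and 0.593 CPM against 0.563, 1.72, 2.69, 10.1, 1.84 and 21.0. Its groups overlapped through endfeet library 1, with 3 counts, and the log2 fold change of 3.75 had a wide error (SE 1.32, adjusted p = 0.042 by edgeR). Since it entered the test only through the group where it is high, its call is given as a description, and 10 members were higher without it. For both genes the counts belong to an annotated transcript with a retained intron, as for 12 of the 91 members, and 17 members were represented by a transcript that is not of coding type. With the coding transcript, Rpl9 kept 3.20 (adjusted p = 0.010 by edgeR) and Rpl10 had 2.15 and no longer passed (adjusted p = 0.13), and without endfeet library 6 Rpl10 had 2.88 (adjusted p = 0.058).

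Rpl8, one of the most abundant members per length, had 176, 212 and 222 CPM in whole astrocyte libraries and 281, 269, 382, 299.9, 222 and 779 in endfeet libraries. The lowest endfeet library lay just under the highest whole astrocyte library, library 6 was far above the rest, and the test was not passed (edgeR, log2 fold change 0.87, SE 0.38, adjusted p = 0.094).

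Rpl23a (chromosome 11, 78180932 to 78183584), the docking site at the exit of the tunnel for the signal recognition particle, was the core protein whose mRNA was lower. It had 15.1, 11.8 and 12.6 CPM in whole astrocyte libraries and 0.563, 2.07, 2.30, 2.41, 7.96 and 1.83 in endfeet libraries, where 6 of 6 libraries lay below. Its log2 fold change was -2.18 (SE 0.80, adjusted p = 0.0493 by edgeR), and it did not pass in 5 of 12 alternative fits. Endfeet library 5 stood above the other endfeet libraries, and without it the value was -2.95 (adjusted p = 0.011 by edgeR). The representative transcript was again one with a retained intron, and the coding transcript gave -2.46 (adjusted p = 0.042). Rpl21, Rpl28, Rpl7a, Rps23 and Rps7 also had all endfeet libraries below, with log2 fold changes of -2.55, -2.22, -2.15, -1.90 and -1.22, and none of the 5 passed the test (adjusted p from 0.084 to 0.28 by edgeR). Of these, Rpl28, Rpl7a and Rps7 entered the test only through whole astrocyte libraries, so their position is given as a description. Rpl32 had all endfeet libraries above, at 0.65, without passing (adjusted p = 0.50).

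The P stalk, which recruits elongation factors, is built of Rplp0, Rplp1 and Rplp2. Rplp1 (chromosome 9, 61913284 to 61914542) had 14.1, 16.2 and 17.4 CPM in whole astrocyte libraries and 37.0, 35.3, 51.6, 32.8, 24.7 and 64.4 in endfeet libraries, with no overlap (log2 fold change 1.36, SE 0.45, adjusted p = 0.032 by edgeR). Its call was lost in 4 of 13 alternative fits and without any 1 whole astrocyte library or endfeet library 3 (adjusted p up to 0.13). Rplp0 had 1.38, 1.96 and 1.73 CPM against 4.69, 1.95, 2.69, 8.45, 4.20 and 10.1, so endfeet library 2 fell among the whole astrocyte libraries (log2 fold change 1.64, SE 0.89, adjusted p = 0.17 by edgeR). Rplp2 had 3.92, 2.65 and 4.35 CPM against 2.44, 2.41, 6.04, 3.06, 1.99 and 3.65, and the groups lay over each other (log2 fold change -0.15, SE 0.79, adjusted p = 0.90 by edgeR). Differences among the 3 stalk mRNAs were not tested. The partners of the 5S rRNA, Rpl5 and Rpl11, which also bind Mdm2, did not pass, with log2 fold changes of 0.86 (adjusted p = 0.16 by edgeR) and 0.71 (adjusted p = 0.65).

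Rpl10a (chromosome 17, 28328471 to 28331033) is the protein that carries the tag. It was counted 8, 7 and 38 times in whole astrocyte libraries and 0, 13, 22, 1, 22 and 18 times in endfeet libraries, or 0.216, 0.185 and 0.834 CPM against 0, 1.49, 1.45, 0.0805, 1.62 and 8.22. The groups overlapped and both varied widely (log2 fold change 2.28, SE 1.502, adjusted p = 0.26 by edgeR). The counts belong to a transcript with a retained intron, and in the coding transcript 24.6% of windows had no match in another gene. The tables have no row for the transgene, so its mRNA could not be followed. Reads of its L10a part may have been counted on Rpl10a, which was not tested, so these counts cannot be assigned to the endogenous gene alone.

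Of the 14 paralogues and like genes, 6 were tested. By edgeR 2 of them were lower and 0 higher, where 13.9% and 20.7% of all tested genes were. With so few genes this is no result about the class. At an unadjusted p under 0.05 by edgeR and by DESeq2, 2 and 0 were found too. The median log2 fold change of the 6 was 0.17. Whether they differ as a class from the core genes was not tested. Rpl7l1 (chromosome 17, 46773907 to 46782672), a nucleolar relative of Rpl7, had 35.9, 41.5 and 42.4 CPM in whole astrocyte libraries and 4.50, 9.997, 13.9, 13.8, 14.96 and 6.40 in endfeet libraries (edgeR, log2 fold change -1.90, SE 0.50, adjusted p = 0.010). Rps19bp1 (chromosome 15, 80260615 to 80264315) had 29.2, 31.9 and 36.6 CPM against 23.1, 3.45, 9.86, 9.98, 5.45 and 8.68 (log2 fold change -1.70, SE 0.59, adjusted p = 0.041 by edgeR). In both, all endfeet values were under all whole astrocyte values, and endfeet library 1 was the highest for Rps19bp1. The call of Rps19bp1 was lost in 3 of 13 alternative fits and without any 1 whole astrocyte library or endfeet library 2, 3 or 5 (adjusted p up to 0.15). Of their counterparts, Rps19 rose, and Rpl7, with 11 to 22 counts in whole astrocyte libraries and 0 to 37 in endfeet libraries, could not be tested.

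The remaining paralogues did not pass the test or had too few counts for it. Rpl22l1, which can stand in for Rpl22 on the ribosome, had 0.432, 0.318 and 0.571 CPM in whole astrocyte libraries and from 0 to 13.7 (median 0.644) in endfeet libraries, the highest being library 1 (adjusted p = 0.18 by edgeR). Rpl22 itself had 146, 161 and 163 CPM against 94.2 to 425 (median 162), with library 1 again on top (log2 fold change 0.30, SE 0.41, adjusted p = 0.60 by edgeR), and the value turned to -0.11 without that library. Of this pair, Rpl22 was thus the more abundant in the counted reads of each library also per length, with group means of 76.4 and 94.4 CPM per kb against 0.797 and 5.35 for Rpl22l1. Windows without a match made up 92.1% of those of Rpl22 and 40.2% of those of Rpl22l1. Rps27l, a p53 target close in sequence to Rps27, showed the reverse order in the counted reads. It had 23.8, 22.0 and 24.5 CPM against 10.54 to 29.2 (median 13.9), with overlapping groups (log2 fold change -0.40, SE 0.51, adjusted p = 0.58 by edgeR), or 40.7 and 31.0 CPM per kb. Rps27 had 0.324, 0.423 and 0.505 CPM against 0 to 0.197 (median 0.114), and 1.21 and 0.296 CPM per kb, but it has no window of its own, while 82.7% of windows of Rps27l have no match.

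Rpl36al, an intronless relative of Rpl36a, had 2.32, 2.59 and 2.39 CPM in whole astrocyte libraries and 1.31 to 10.1 (median 2.28) in endfeet libraries, and Rpl36a had 3.24, 2.54 and 4.04 against 0.161 to 3.56 (median 1.64). Neither passed (adjusted p = 0.57 and 0.47 by edgeR), and the groups overlapped. Rpl10-ps3, a copy of Rpl10 annotated as protein-coding, had 0.973, 1.35 and 0.966 CPM against 0.804 to 6.85 (median 2.21) and did not pass either (adjusted p = 0.34 by edgeR). Rpl3l, the form of Rpl3 in skeletal muscle and heart, had 0.270, 0.212 and 0.0878 CPM against 0 to 0.563, with 10 counts at most in a library, and Rpl3 had 0.189, 0.265 and 0.219 against 0 to 1.77. Windows without a match made up 100% of those of Rpl3l and 4.53% of those of Rpl3, so these levels do not rank the mRNAs. Rpl39l, known from testis, had no count in any endfeet library and 0, 1 and 26 in whole astrocyte libraries, where Rpl39 had 56, 43 and 77. Rpl10l, the testis form of Rpl10, had no count in 9 of 9 libraries. Rps27rt and Rpl9-ps6 had at most 7 counts in a library, Rpl36-ps4, Rps12-ps3 and Rpl9-ps1 had a group mean of at most 0.0638 CPM, and Rps4x had 9 to 11 counts in whole astrocyte libraries and 0 to 10 in endfeet libraries.

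Untested members numbered 23, with 6 of the 60S, 9 of the 40S and 8 of the paralogue class. Their highest count in any library was 45. None had a group mean above 1.20 CPM.

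Over all 91 members, the order of levels was close between whole astrocyte libraries and looser between endfeet libraries. Spearman correlations over the members were 0.979 to 0.985 for the 3 pairs of whole astrocyte libraries, 0.734 to 0.888 (median 0.811) for the 15 pairs of endfeet libraries, and 0.758 to 0.868 (median 0.830) for the 18 mixed pairs. These are descriptions over genes, which share depth and length between libraries. Among the 11 members called higher, endfeet library 6 was the highest endfeet library for 10, and libraries 1 and 5 the lowest for 4 each. The common dispersion over all genes was 0.724 among endfeet libraries, far above the 0.0141 of whole astrocyte libraries.

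Start sites were looked at for the pyrimidine tract that marks these mRNAs. RefSeq promoter sequences (GRCm38.p6) held 66 of the 91 members, and the 30 bases from 20 before to 10 after the start (of several starts, the one with the longest run) were searched on the coding strand for the longest run of C and T. These are the windows of the 10 called members that were matched and of the matched member with the longest run, with that run in capitals.
Rpl4, chr9:64173367-64173396, plus strand, rose: agTCTTTCCTTTTCCTgtgggagcagccgg
Rpl13a, chr7:45128736-45128765, minus strand, rose: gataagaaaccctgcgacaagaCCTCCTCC
Rps9, chr7:3704021-3704050, plus strand, rose: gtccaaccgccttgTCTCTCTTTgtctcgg
Rpl9, chr5:65391422-65391451, minus strand, rose: gcgacacgcagggCCCTgacggattacaag
Rpl10, chrX:74270796-74270825, plus strand, called higher: CTatggttgttacagtggaagataggccgc
Rps3, chr7:99483700-99483729, minus strand, rose: gaacaCTTgcaagggtcgccgcgctgcgcg
Rps19, chr7:24884572-24884601, plus strand, rose: agcaCTCCgaaatctcgcgagactcgacgc
Rpsa, chr9:120127746-120127775, plus strand, rose: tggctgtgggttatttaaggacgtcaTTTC
Rpl7l1, chr17:46782647-46782676, minus strand, fell: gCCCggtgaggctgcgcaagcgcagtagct
Rps19bp1, chr15:80264297-80264326, minus strand, fell: accgccagggcggaagtagCTCgccgcgtg
Rpl7a, chr2:26910787-26910816, plus strand, did not pass: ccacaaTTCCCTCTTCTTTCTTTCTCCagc
A run of 8 or more was found in 28 of the 66 members (42.4%), in 26 of the 57 core proteins among them (45.6%) and in 2348 of 16176 other protein-coding genes (14.5%), and the median longest run was 7 in members and 5 in the others. Of the 28 members with such a run, 24 were tested and 3 were higher, with a median log2 fold change of 0.78. Of the 38 without it, 29 were tested, 5 were higher and 2, Rpl7l1 and Rps19bp1, lower, with a median of 0.62. Of all tested genes, 20.7% were higher and 13.9% lower, and whether the sets differ was not tested. Annotated starts can lie some bases from the true start, so a missing run says only that the letters are not in this window.

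Other genes of the translation machinery were counted from lists. Of 17 other mRNAs with a 5 prime TOP motif, all tested, 5 rose (29.4%, against 20.7% of all tested genes), 1 fell (5.88%, against 13.9%) and 11 did not pass, with a median log2 fold change of 0.73. The poly(A)-binding protein Pabpc1 went from 28.9 ± 2.41 (SD, n = 3) to 416 ± 338 CPM (SD, n = 6), a difference of 3.85 on the log2 scale (edgeR, adjusted p = 0.00027, SE 0.59), and the initiation factor Eif4b from 76.2 ± 1.62 to 465 ± 300.3, with 2.61 (SE 0.45, adjusted p = 0.0007). The elongation factors Eef2 and Eef1a1 had 2.26 (SE 0.35, adjusted p = 0.00028 by edgeR) and 1.47 (SE 0.32, adjusted p = 0.0030). Eef1d, a nucleotide exchange factor for Eef1a1, fell from 71.6 ± 7.87 to 31.7 ± 7.998 CPM, with -1.18 (SE 0.35, adjusted p = 0.019). Each of these 5 had no overlap between groups. Among ribosomal proteins that the name rule misses, Rack1, a scaffold at the 40S head, rose by 1.23 (SE 0.30, adjusted p = 0.0063), while Fau, which encodes a ribosomal protein fused to a ubiquitin-like protein, had -0.80 and did not pass (adjusted p = 0.52).

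Of 40 tested genes of ribosome biogenesis, which build the subunits mainly in the nucleolus, 2 were called higher (5%, against 20.7% of all tested genes), 8 lower (20%, against 13.9%) and 30 did not pass, with a median log2 fold change of -0.67. Pno1, needed for 40S maturation, went from 73.9 ± 2.70 (SD, n = 3) to 10.8 ± 6.70 CPM (SD, n = 6), with -2.79 (SE 0.59, adjusted p = 0.0025 by edgeR). Rrs1 and Ebna1bp2, both of 60S assembly, had -2.11 and -1.85, and Nop10, of the pseudouridylation complex, had -1.74 (adjusted p from 0.0024 to 0.0047). Nucleolin, encoded by Ncl, rose from 150.4 ± 8.40 to 931 ± 412 CPM, with 2.63 (SE 0.37, adjusted p = 0.00014), while Nop58, at 0.97 (adjusted p = 0.049), lost its call in 8 of 13 alternative fits and in 6 of 9 with a library left out (adjusted p up to 0.21). Of 15 tested regulators of TOP mRNAs and S6 kinase, 2 were called higher, 2 lower (13.3% each, against 20.7% and 13.9% of all tested genes) and 11 did not pass. The translation repressor Eif4ebp2 rose by 3.09 on the log2 scale (edgeR, adjusted p = 0.00021, SE 0.46). Tsc2, an inhibitor of mTOR signalling with overlapping groups, had 1.15 (SE 0.40, adjusted p = 0.041) but kept its call in 5 of 13 alternative fits and 2 of 9 with a library left out (adjusted p up to 0.27). Rheb, the GTPase that activates mTOR, had -2.40 (SE 0.33, adjusted p = 0.00012). Akt1s1, an mTOR inhibitor, had -1.82 (SE 0.63, adjusted p = 0.038), and it and Eef1d lost their calls without any 1 whole astrocyte library (adjusted p up to 0.14 and 0.099). Larp1, Mtor and Rps6kb1 did not pass (adjusted p = 0.98, 0.080 and 0.31).

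**Figure D5:**
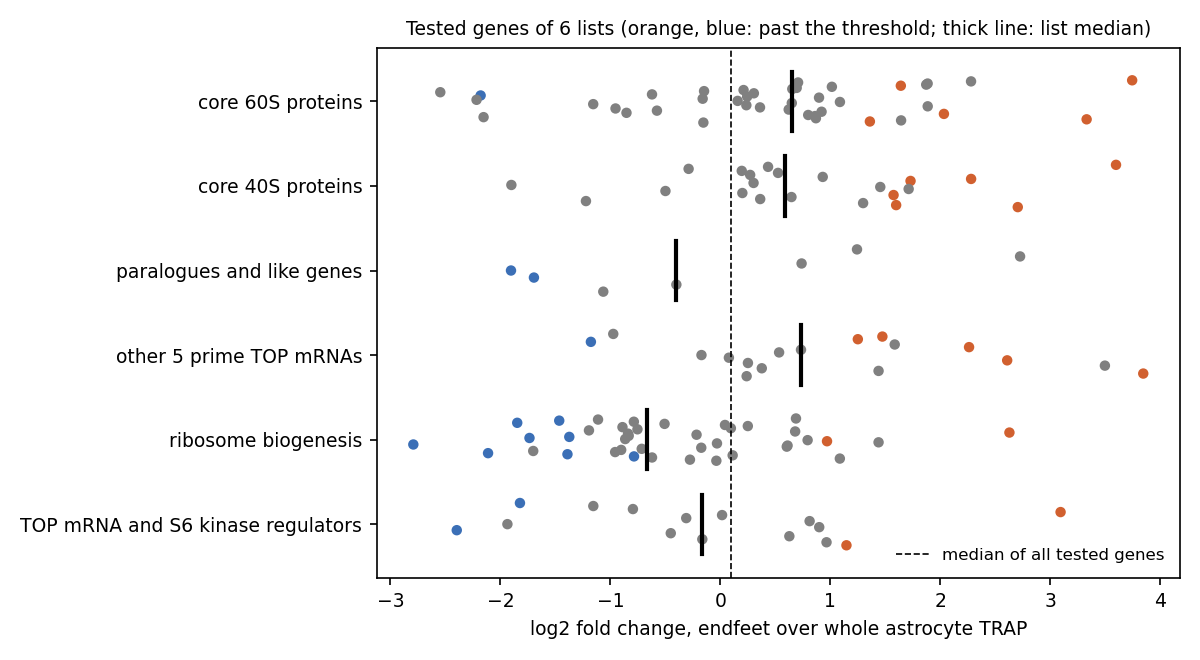
Log2 fold change of endfeet over whole astrocyte TRAP for the tested genes of 6 lists, 1 point a gene, with orange for higher and blue for lower at an adjusted p of at most 0.05, a thick line at each list's median and a dashed line at the median of all tested genes (0.10). The medians lie at 0.65 and 0.59 for core 60S and 40S proteins and at -0.67 for ribosome biogenesis, and the list of paralogues also holds Rps4l, which is not protein-coding.

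Markers of other cells moved with the groups. All 12 endothelial, all 11 mural and all 8 fibroblast markers tested were higher in endfeet TRAP, as were 10 of 13 markers of microglia and macrophages, 5 of 8 of ependymal cells, 7 of 8 of choroid plexus epithelium and 3 of 3 tested of erythroid cells. Of all tested genes, 20.7% were higher and 13.9% lower. The summed level of endothelial markers was 51.1 to 59.96 CPM in whole astrocyte libraries and 3838 to 5680 in endfeet libraries, that of mural markers 43.8 to 48.6 and 4129 to 8650, that of fibroblast markers 35.5 to 54.8 and 836 to 1693, and that of microglia and macrophages 26.7 to 31.9 and 266 to 490.2. Ly6c1 was the only endothelial marker at 0 in all whole astrocyte libraries, and none was at 0 in all endfeet libraries. Of 13 astrocyte markers 1 rose and 6 fell, with summed levels of 25583 to 27929 and 10559 to 31634 CPM, and 3 of 10 neuronal and 3 of 9 oligodendrocyte markers fell. The summed level of choroid plexus markers was 127 to 1705 CPM in whole astrocyte libraries, which were made without choroid plexus, and 9480 to 114530 in endfeet libraries, mostly from the thyroxine carrier Ttr, with 86764 CPM in endfeet library 1, the library on top for Rpl22, Rpl22l1 and Rps19bp1. Ependymal markers summed to 40.9 to 55.2 and 140.2 to 299.8 CPM, and erythroid markers to 1.54 to 3.07 and 30.5 to 114, with Hba-a1 and Hba-a2 at 0 in all whole astrocyte libraries and Hba-a2 also in all endfeet libraries. Neuronal markers summed to 3641 to 4233 and 1067 to 2006 CPM and oligodendrocyte markers to 879.7 to 893 and 259.9 to 633. Nearly all cells make ribosomal proteins, and the part of the other cells in the values above was not tested.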

How the data were processed

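TRAP RNA was sequenced in 9 libraries (3 whole astrocyte, 6 endfeet). Per the study's methods and the submitters' processing notes, the authors amplified the RNA, filtered reads of 50 bases, aligned them to mm10 (Ensembl 75) with Bowtie, removed reads with more than 1 match and counted the rest with HTSeq-count 0.5.3. The deposited values are raw counts per transcript, not normalized. The tables' 75466 transcripts were matched to GENCODE M21 (73164 found, 22092 genes), and of each gene's transcripts the one most abundant over all libraries stood for the gene. Gene totals were 35984144 to 43521208 and 2319495 to 13450588 counts.

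The groups were compared with edgeR 4.0.16 (TMM, filterByExpr, glmQLFit, glmQLFTest; R 4.3.3) and p-values were adjusted by Benjamini-Hochberg (called at 0.05 or less). An adjusted p named without a tool is from this test. SEs were derived from the fold change and its F statistic. DESeq2 1.42.0, limma voom 3.58.1, other scalings, filters and transcripts, and each library left out were alternatives. On simulated data for this comparison (200 changed genes of equal dispersion in both groups) the test was checked for direction and calls. Both groups shared an estimate of spread in the fit, while common dispersions were 0.0141 in whole astrocyte and 0.724 in endfeet libraries. The check does not cover calls under such a difference. Whole astrocyte libraries came from separate brains and endfeet libraries from pools of mice, so p-values measure the spread between brains or pools as sequenced. Endfeet libraries 1 to 3 carry file numbers of another run of numbers than the other 6 libraries, whose meaning is not given in the sources used here. Counts are not stated to use strand, so reads of overlapping and antisense genes cannot be told apart.

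Members and lists were chosen with earlier results of these data known. Values of a few genes are not reported here, though they count in totals. Any other member may be named. Values in every library are given for Rpl10a, the P stalk and Rpsa, for paralogues with their counterparts (as lowest, median and highest in endfeet TRAP), for up to 8 called members per direction with the largest change and no overlap, and for the 3 highest and 3 lowest levels per kb as group means. Values of Rps3 and Rpl10 were added as they had passed the threshold. From other lists, up to 4 called genes per direction were named, and Fau, Larp1, Mtor and Rps6kb1 were added after their values were seen.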

Additional observations from a re-analysis of the deposited data

Results flagged for a closer look

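In 17 of 32 groups of 6 endfeet libraries examined, the highest library lay farther from the next than Dixon's 95% critical value for 6 values allows. That limit assumes normally distributed values, which was not checked for these levels, so no chance rate is given. The groups are not independent, since they share libraries. Endfeet library 6, the one with the fewest counts, was the highest for the share of counts on the members (0.4997%) and in normalized CPM for Rpl4 (1507), Rpl8 (779), Rps3 (744), Rps9 (345), Rps20 (156), Rpl13a (63.5), Rps19 (29.2), Rpl10a (8.22), Rpl10-ps3 (6.85), Rps4x (4.57) and Rps27rt (1.37). For Rps4x and Rps27rt the library held 10 and 3 counts. Endfeet library 1 stood apart for Rpl22 (425 CPM), Rps19bp1 (23.1) and Rpl22l1 (13.7), endfeet library 5 for Rpl23a (7.96) and endfeet library 3 for Rpl7 (2.43). Leaving out endfeet library 6 lowered the median log2 fold change of the tested members from 0.65 to 0.45, with 10 members higher and 3 lower.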

How the results depend on the processing

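The number of members higher in endfeet TRAP (11) stayed between 9 and 13 under the other tests, scalings, filters and transcript choices and ranged from 3 to 11 when 1 library was left out (3, 4 and 3 without whole astrocyte library 1, 2 or 3). The number lower (3) was 7 with limma voom and 1 with the library series as a covariate, and ranged from 0 to 4 when 1 library was left out (1 without endfeet library 2 or whole astrocyte library 1, and 0 without whole astrocyte library 2 or 3, where 3 and 2 were lower at an unadjusted p under 0.05 by edgeR). The median log2 fold change of members was positive in each fit and 0.23 with endfeet libraries 4 to 6 only. Scaling moved the median of all genes by at most -0.13 (TMM without ribosomal protein genes), limma voom by -0.39, and the members' median lay 0.34 to 0.71 above it in all fits. Called genes of the pathway lists that were lower (11) numbered 23 with limma voom and 6 to 15 with 1 library left out (6, 7 and 7 without whole astrocyte library 1, 2 or 3). The share of counts on members in whole astrocyte TRAP was 0.157%, or 0.173% with each library's 10 leading genes taken out of the total and 0.174% with counts summed over transcripts. Endfeet shares under these settings are not given, so whether the groups stay apart under them is not shown. With a replicate block, 6 members were higher and 1 lower, but deviations of same-numbered libraries had correlations of -0.03, 0.01 and 0.07, so the numbers do not pair the libraries. Changes of sign were those of Rplp2 (0.044, counts summed over transcripts), Rpl22 (-0.11 to 0.51 with 1 library left out, below 0 without endfeet library 1) and Rpl22l1 (-0.39 with the series as a covariate and -0.47 with endfeet libraries 4 to 6 only). The cause was not tested. Read windows unique in the genome were not run, since no genome sequence was used here. Windows unique among annotated transcripts and the use of coding transcripts were alternatives chosen after seeing the data. Depth limits members under 100 counts most.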

Other observations

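Among the 23 genes that share a member's name without being protein-coding, reads were few except on Rps10-ps1, picked after its values were seen. This processed pseudogene had 424, 475 and 672 counts in whole astrocyte libraries and 21, 90, 189, 74, 69 and 20 in endfeet libraries. Rps10 itself, a 40S protein near the mRNA entry, had too few counts to be tested, with 22, 31 and 38 counts against 1, 6, 5, 1, 7 and 1. Which of these genes the reads came from was not tested. Rps4l, annotated as a transcribed processed pseudogene, had 197, 250 and 228 counts against 10, 38, 66, 7, 64 and 0. The 23 genes together had 704 to 1013 counts in whole astrocyte libraries and 41 to 319 in endfeet libraries.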
